A study of Mus musculus with 2 samples.

Results

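The PI3-kinase family was described in total RNA of the mouse adrenal gland through 10 genes chosen by name, of 55536 annotated genes measured. They were 8 catalytic genes, namely Pik3c2a, Pik3c2b and Pik3c2g (class II), Pik3c3 (class III), Pik3ca, Pik3cb and Pik3cd (class IA) and Pik3cg (class IB), and the regulatory genes Pik3r1 and Pik3r2. All 10 symbols matched 1 gene identifier each. The tissue came from female B6CASTF1/J mice, F1 hybrids that carry CAST alleles, aged 25 days, and the labels give no treatment. There were 2 libraries in 1 group, replicate 1 and replicate 2, each made from 300 ng of RNA with a directional kit and ERCC spike-ins. The labels name different females for the tissue pieces but give the same donor entry and the same library text for both, so an SD here may be technical only. Without another group, differences between conditions could not be examined.

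PI3-kinases add a phosphate to the third position of the inositol ring of membrane lipids, and the products recruit proteins such as the kinase Akt. Class I enzymes act below receptors and consist of a catalytic and a regulatory subunit, class II enzymes work alone in membrane traffic and signalling, and the class III enzyme serves endosome traffic and autophagy. In the adrenal gland, Pik3c2g is known as a marker of the X-zone, an inner layer of the cortex of young mice, and outside the adrenal gland it is known from the liver.

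The expected counts of replicate 1 came to 19366343 and those of replicate 2 to 33728646. Coding genes of the nucleus, leaving out Lars2, made up 36.4% and 66.1%, and their deposited TPM, an abundance corrected for transcript length and library size, summed to 206815 and 338304. A TPM of any coding gene therefore tends to read lower in replicate 1, and coding TPM, the same value rescaled to a sum of 1000000 over those coding genes, is given beside it. The family received 7003 and 27283 counts. Of the 10 genes 8 reached 1 TPM in both libraries, against 51.5% of the 22014 coding genes, and Pik3cd and Pik3cg did not.

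Pik3c2g (chromosome 6, 139587221 to 139969284, plus strand, mm10), which encodes the gamma isoform of class II, was the catalytic gene with the highest level in each library. Its 1479 counts in replicate 1 gave 33.3 TPM and its 5476 counts in replicate 2 gave 61.7 TPM, a mean of 47.5 ± 20.1 TPM (SD, n = 2). On the coding scale the gap was smaller, with a coding TPM of 161 and 182 (172 ± 15.2, SD, n = 2). It lay at percentile 94.8 and 95.6 of coding genes by TPM. By TPM, most of the estimated transcripts of the gene began in its second part, at or past an inner start site.

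RefSeq lists a pair of start sites for Pik3c2g on GRCm38.p6, and both promoters are shown because the transcript estimates fell mostly on models that start at or past the second. Each window runs from 250 bases before to 50 bases after the start, on the plus strand. Capitals mark a match to CAAGGTCA or CAAGGCCA, binding motifs of the steroidogenic factor NR5A1, searched on both strands.
Outer promoter, chr6:139613822-139614121: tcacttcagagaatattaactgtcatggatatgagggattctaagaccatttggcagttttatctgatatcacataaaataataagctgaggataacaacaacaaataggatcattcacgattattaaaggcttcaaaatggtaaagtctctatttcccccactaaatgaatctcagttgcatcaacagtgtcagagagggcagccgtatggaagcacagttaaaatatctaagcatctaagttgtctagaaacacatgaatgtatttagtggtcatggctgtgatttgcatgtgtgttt
Inner promoter, chr6:139841195-139841494: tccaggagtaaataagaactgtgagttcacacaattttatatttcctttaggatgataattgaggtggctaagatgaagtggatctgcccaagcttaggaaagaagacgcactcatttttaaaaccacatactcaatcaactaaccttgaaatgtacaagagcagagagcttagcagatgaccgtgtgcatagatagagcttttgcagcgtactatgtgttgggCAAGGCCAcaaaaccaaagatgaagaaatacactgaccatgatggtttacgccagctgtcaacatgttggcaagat
The inner promoter holds CAAGGCCA beginning 26 bases before its start, and the outer window holds neither motif. One or both motifs occur in 3.92% of the 32851 RefSeq promoter windows. The promoter table held 9 of the 10 genes with 14 windows, and the inner Pik3c2g window was the 1 with a match. A match is a description of letters and not of binding. GC content was 36% in the outer and 40.7% in the inner Pik3c2g window.

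Of the 15 annotated Pik3c2g transcripts, 5 start at or past the inner site, and these held 96.4% of the gene's TPM in replicate 1 and 94.1% in replicate 2. The other quantification gave 94.7% and 84.8%. Its lower value in replicate 2 came with 6.73 TPM (369 counts) placed on Pik3c2g-215, a coding model that begins upstream, which had 0 in the other 3 estimates. The 10 transcripts that start upstream summed to 1.19 TPM in replicate 1 and 3.64 TPM in replicate 2. The longest model, Pik3c2g-203 (24 exons), had 0 counts in both libraries and both quantifications. No annotated model runs from the outer start to the last exon: the 6 models that begin farthest upstream end before exon 10 of Pik3c2g-203, and they held 0.18% and 0.00%.

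Along the exons of Pik3c2g-203 the step lay between exon 9 and exon 10. Transcripts overlapping exon 9 summed to 1.13 and 3.64 TPM in replicates 1 and 2, and those overlapping exon 10 to 33.2 and 61.7 TPM. Exons 1 to 8 stood at 0.27 TPM and 1.23 TPM throughout. In the other quantification exon 9 stood at 2.05 and 15.8 TPM and exon 10 at 40.2 and 103.9 TPM, and its exons 4 to 8 were at 11.4 TPM in replicate 2 against 0.84 TPM in replicate 1. The models differ in which exon is joined to exon 10 (139843888 to 139844068). Pik3c2g-202 joins a first exon of 5 bases to exon 10, and this route is not shown. The 15 bases on each side of the junction with exon 10 are shown for Pik3c2g-203 and Pik3c2g-211, with exon 10 in capitals.
Pik3c2g-203, from exon 9: tcaccgtctgtactgGCTGCTACGGGATGC
Pik3c2g-211, from the inner first exon: cgttgctgtgatgggGCTGCTACGGGATGC
The inner first exon of Pik3c2g-211 spans 251 bases and begins 254224 bases past the annotated start of the gene.

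**Figure D1:**
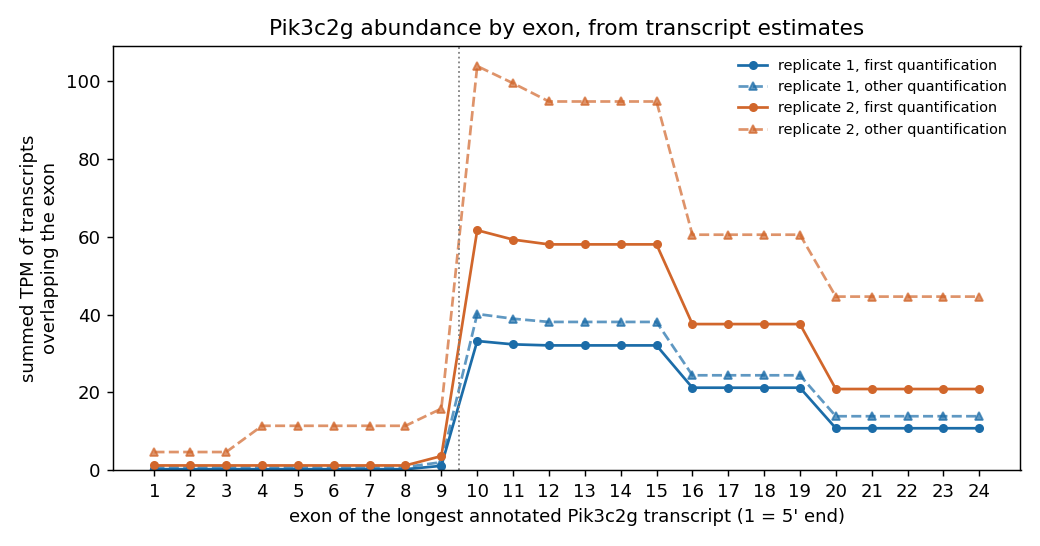
Summed TPM (y axis) of the annotated Pik3c2g transcripts that overlap each exon of Pik3c2g-203 (x axis, exon 1 at the 5′ end), with 1 line per library and quantification; the dotted line marks the inner start. All 4 lines rise from exon 9 to exon 10, the upstream exons are highest in replicate 2 of the other quantification (15.8 TPM at exon 9), and the lines step down after exon 15 and after exon 19.

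The transcripts that start at or past the inner site differed in where they ended. Among them Pik3c2g-202 begins 2203 bases past that site. The last exon of Pik3c2g-207 runs unspliced from the start of exon 14 (139859365) past exon 15 to 139861755, and this transcript held 32.7% and 33.2% of the gene's TPM. Pik3c2g-208, which ends at 139900069, held 31.3% and 27.1%. The 4 models that reach the last exon held 32.4% and 33.8%, and 34.5% and 43.0% in the other quantification. The summed TPM over the exons was lower in steps, from 32.1 and 58.0 at exon 15 to 21.2 and 37.6 at exon 16, and to 10.8 and 20.9 at exon 20.

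Which of the transcripts reaching the last exon was present could not be settled. Pik3c2g-202, annotated as coding with a reading frame of 1959 bases, held 32.5% in replicate 1 and 1.37% in replicate 2, while Pik3c2g-211, annotated without a reading frame, held 0% and 32.5%. They share 15 of their 16 exons and 3298 bases, which is 99.8% of the coding model, and differ in the first exon, of 5 and 251 bases. Their sum was close in the libraries, at 32.4% and 33.8%. The other quantification put all of it on Pik3c2g-211 (34.5% and 36.5%). The share of Pik3c2g on coding models, 32.6% and 1.36% in the first quantification, is set by that split. The files hold no reads by position, so these values rest on the estimates per transcript and on the mm10 annotation, to which the CAST copies were also compared.

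Pik3c2a (chromosome 7, 116337265 to 116443449), the widely expressed alpha isoform, and Pik3c2b (chromosome 1, 133045667 to 133108687), the beta isoform, completed class II. Pik3c2a was at 5.36 and 11.2 TPM in replicates 1 and 2 (8.28 ± 4.12, SD, n = 2), with coding TPM of 25.9 and 33.1. Pik3c2b was at 1.65 and 2.75 TPM (2.20 ± 0.778), with nearly equal coding TPM of 7.98 and 8.13. Pik3c2g exceeded Pik3c2a 6.21 and 5.51 times and Pik3c2b 20.2 and 22.4 times, and the other quantification gave 5.74 and 6.25 times and 20.4 and 22.2 times. Both of these genes were led by full coding models: Pik3c2a-201 held 53.9% and 47.3%, and Pik3c2b-201 held 69.3% and 79.0%. The other quantification gave Pik3c2a-201 40.7% and 43.8%, and Pik3c2b-201 75.05% and 78.2%. In Pik3c2a the models annotated for nonsense-mediated decay took 10.1% and 23.5%, and the intron-retaining models 18.8% and 13.1%. In the other quantification the decay models took 17.9% and 9.71%, with the libraries in the opposite order, and the intron-retaining models 13.1% and 12.8%.

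Pik3c3 (chromosome 18, 30272747 to 30348126), which encodes Vps34, the class III enzyme, had 6.92 TPM in replicate 1 against 13.7 TPM in replicate 2 (10.3 ± 4.78, n = 2), or 33.5 and 40.4 in coding TPM. Its transcript estimates were far apart: the coding model Pik3c3-203 held 11.3% in replicate 1 and 89.6% in replicate 2, and the decay-type model Pik3c3-204 held 64.6% and 0%. The other quantification gave Pik3c3-203 76.8% and 87.2%. These models share 3071 bases, 94.3% of Pik3c3-203, so their split is uncertain and no difference in splicing is read from it. Pik3r4, the regulatory partner of Vps34, was at 8.64 and 13.8 TPM, and Becn1, the autophagy scaffold of the same complex, at 24.7 and 52.3 TPM.

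Among class IA catalytic genes, Pik3ca (chromosome 3, 32397671 to 32468486), which encodes p110-alpha and signals below insulin and growth factor receptors, was highest. Replicate 1 had 8.15 TPM and replicate 2 had 21.01 TPM (14.6 ± 9.09, n = 2). Coding TPM was 39.4 and 62.1, a log2 ratio of 0.66 beside 0.16 from scaled counts, and 29.8% of its TPM in replicate 2 came from 67.2 counts on Pik3ca-204, an intron-retaining model of 440 bases. That model had 0 in replicate 1 and 0 in the other quantification, where Pik3ca stood at 9.72 and 24.1 TPM. The coding model Pik3ca-203 led in each estimate, with 80.6% and 65.6% in the first and 97.1% and 94.5% in the other quantification.

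Pik3cb (chromosome 9, 99036654 to 99140621), which encodes p110-beta and can also act below G-protein-coupled receptors, had 3.19 TPM in the first and 4.95 TPM in the second library (4.07 ± 1.25, n = 2). Its coding TPM was close in the libraries, at 15.4 and 14.6. Of its 3 models the decay-type Pik3cb-203 held 41.5% and 71.4%, and the coding Pik3cb-201 58.5% and 27.1%. The other quantification gave the decay-type model 74.1% and 55.5%, so neither order between these models was shared by all estimates. They have 4630 bases in common.

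Pik3cd (chromosome 4, 149649168 to 149702571) and Pik3cg (chromosome 12, 32173473 to 32208659) encode p110-delta and p110-gamma, the catalytic subunits best known from leukocytes. For Pik3cd, 32 counts gave 0.42 TPM in replicate 1, and 134 counts gave 1.45 TPM in replicate 2 (0.935 ± 0.728, n = 2). Pik3cg was at 0.24 TPM (20 counts) and 0.80 TPM (127 counts), 0.520 ± 0.396. With these counts their transcript shares were not interpretable: the leading model of Pik3cd differed between the quantifications in both libraries. In replicate 1 the deposited intervals, 0.882 to 2.63 TPM for Pik3cd and 0.247 to 1.08 TPM for Pik3cg, lie above the TPM itself, so these levels are uncertain. The other quantification gave 0.918 and 4.04 TPM for Pik3cd, and 0.341 and 1.33 TPM for Pik3cg.

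Leukocyte markers were low as well. The 5 pan-leukocyte genes came to 4.88 TPM and 9.60 TPM. Lcp1 (1.86 and 3.64 TPM) and Ptprc (54 and 207 counts) were the 2 that reached 1 TPM in both libraries, while Coro1a (0.73 and 2.64 TPM) was second by the mean. Here and for the other lists, the genes said to lead are the highest by mean TPM, and their order could differ within a library. Its coding TPM summed to 23.6 and 28.4. Macrophage genes summed to 23.4 and 40.5 TPM with 6 of 8 at 1 TPM or more in both, led by C1qb (5.12 and 9.33 TPM) and C1qa (4.48 and 9.46 TPM). None of 7 lymphocyte genes reached 1 TPM in both, and the list summed to 0.45 and 1.52 TPM, with Cd79a at 0.22 and 0.30 TPM and the T-cell genes Cd3e, Cd3g and Cd8a at 0 counts in replicate 1. Their part in the levels of Pik3cd and Pik3cg was not tested, and in bulk tissue fewer cells of a type and less RNA per cell cannot be told apart.

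Pik3r1 (chromosome 13, 101680563 to 101768217) encodes p85-alpha and its shorter forms, the regulatory subunits that hold class IA enzymes at receptors. Its 2825 counts in replicate 1 made 27.3 TPM and its 12125 counts in replicate 2 made 63.7 TPM (45.5 ± 25.7, n = 2), with coding TPM of 132 and 188. Pik3r2 (chromosome 8, 70768176 to 70776713), which encodes p85-beta, was at 10.6 and 20.5 TPM (15.5 ± 7.0), with coding TPM of 51.0 and 60.5. Pik3r1 exceeded Pik3r2 2.59 and 3.12 times, and 2.28 and 2.81 times in the other quantification. The regulatory genes summed to 37.9 and 84.2 TPM against 11.8 and 27.4 TPM for the 3 class IA catalytic genes.

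In contrast to Pik3c2g, Pik3r1 was placed mainly on a transcript from its outer start. The full-length model, of 7113 bases in 16 exons with a reading frame of 2172 bases, held 86.5% in replicate 1 and 80.9% in replicate 2, and 63.0% and 60.1% in the other quantification. Transcripts from the inner start, at 101692630, or past it held 5.93% and 6.37% in the first and 20.2% and 23.6% in the other quantification. Among them Pik3r1-201, a coding model with a shorter frame of 1362 bases, was at 0.82 and 2.66 TPM. Pik3r2-201, the coding model that led Pik3r2, held 71.7% and 74.3%, and 46.4% and 52.7% in the other quantification, which gave 32.1% and 33.5% to a short model without a reading frame.

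**Figure D2:**
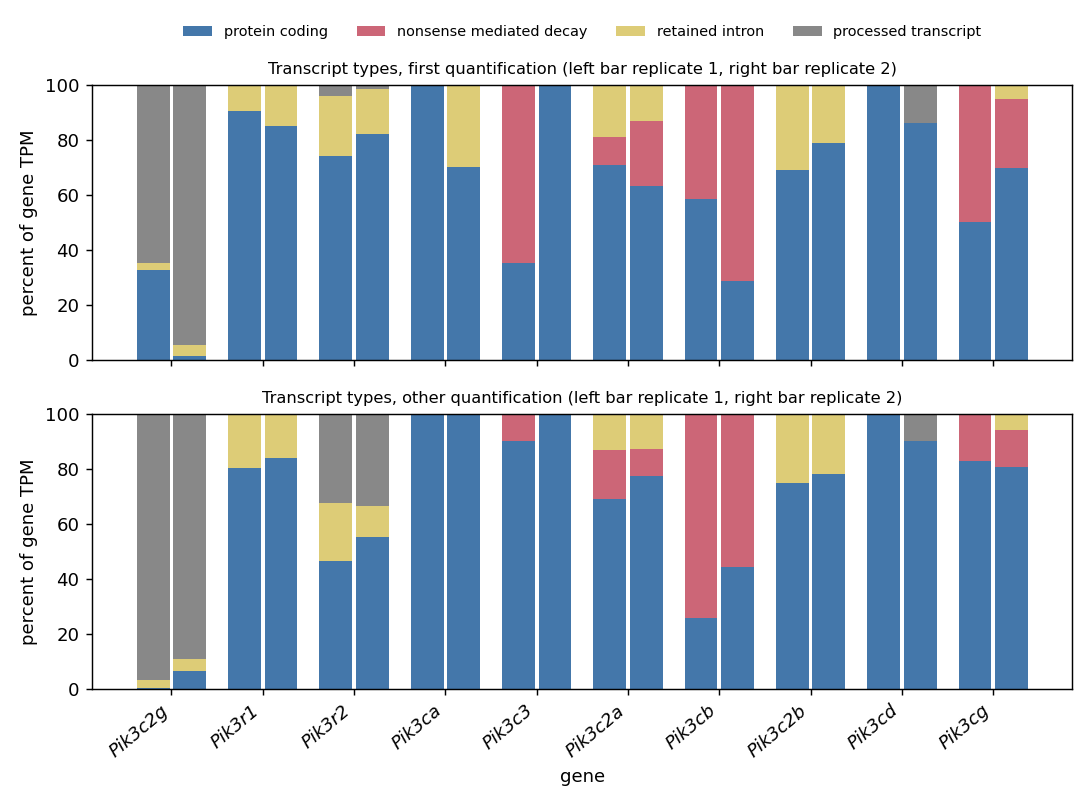
Share of each gene's TPM (y axis, percent) on annotated transcript types for the 10 genes (x axis), with replicate 1 as the left and replicate 2 as the right bar, and the first quantification above the other. Pik3c2g is the gene on which models without a reading frame hold most of the TPM in every bar, while the split of Pik3c3, Pik3ca and Pik3cb moves between bars.

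Over the family the same coding model led in both libraries and both quantifications for 5 genes, Pik3c2a, Pik3c2b, Pik3ca, Pik3r1 and Pik3r2. Overlapping annotated genes held few counts: 7 members overlap 11 such entries, of which 1, on the strand of Pik3r1 and named Gm36638, passed 100 counts in a library (38 and 165 counts).

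Ordered by mean coding TPM, the genes ran Pik3c2g, Pik3r1, Pik3r2, Pik3ca, Pik3c3, Pik3c2a, Pik3cb, Pik3c2b, Pik3cd, Pik3cg. Of the 9 neighbouring pairs 7 kept their order in both libraries and both quantifications. Pik3c2g and Pik3r1 could not be ordered, as Pik3c2g was 1.22 times Pik3r1 in replicate 1 and 0.968 times in replicate 2, and 0.973 and 0.817 times in the other quantification. Pik3r2 and Pik3ca could not be ordered either, with ratios of 1.29 and 0.973, although the other quantification gave 1.87 and 1.88. With 2 values per gene, an exact two-sided permutation test between 2 genes cannot go below a p of 0.333, so none was run.

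**Figure D3:**
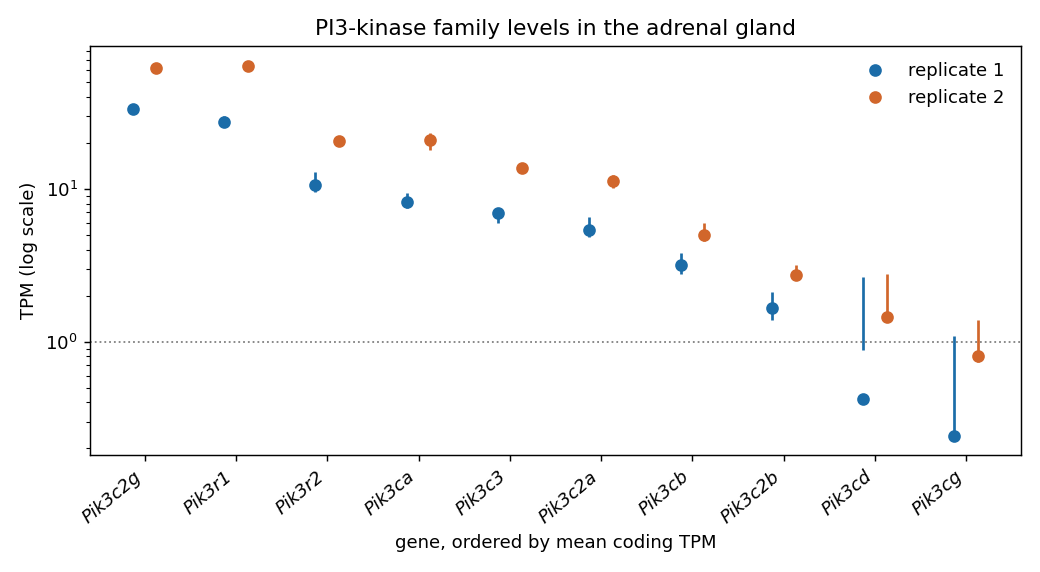
Deposited TPM (y axis, log scale) of the 10 genes (x axis) in replicate 1 and replicate 2; vertical lines are the intervals deposited with the estimates, whose level the files do not state, and the dotted line is 1 TPM. Pik3c2g and Pik3r1 are the highest and Pik3cd and Pik3cg the lowest in both libraries.

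By class, the 3 class II genes held 68.0% of the summed TPM of the 8 catalytic genes in replicate 1 and 64.4% in replicate 2 (66.2 ± 2.61%, n = 2). Pik3c2g alone held 56.2% and 52.5% (54.3 ± 2.62%), counting all its models. Its models that reach the last exon came to 10.8 TPM in replicate 1 and 20.9 TPM in replicate 2. Pik3ca, over all its models, was at 8.15 and 21.01 TPM, so the lead of Pik3c2g rests on models that end early. Class IA held 19.9% and 23.3%, class III 11.7% and 11.6%, and class IB 0.405% and 0.681%. The shares in replicate 2 include the 6.27 TPM placed on Pik3ca-204, which had 0 in replicate 1. In expected counts, which are not corrected for length, the share of Pik3c2g was 39.3% and 40.3%, still the highest of the 8. These shares do not depend on how TPM was scaled within a library.

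Differences between the libraries were below 2-fold for the 8 members tested under TMM, where 1.28% of all genes tested reached 2-fold. Each difference is a log2 ratio with replicate 1 as the denominator, taken on TMM-scaled counts plus a prior of 1 count. The exact binomial test, conditional on a gene's sum, was applied to the 11542 genes whose mean count reached 100, and p-values were adjusted over them by the Benjamini-Hochberg method. The test compares these libraries only and covers counting error only. It called 33.3% of all genes, 17.6% as higher and 15.7% as lower in replicate 2, and 6 of the 8 members tested, 5 higher and 1 lower. The median ratio was 0.19 over these 8 members and 0.03 over all genes tested. The median absolute ratio over all genes tested was 0.158.

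Pik3r1 had the largest ratio among the members tested, 0.42 (adjusted p = 2.16e-44, exact conditional binomial test). Pik3c3 stood at 0.29 (adjusted p = 0.00375), Pik3r2 at 0.24 (adjusted p = 0.0116), Pik3c2g at 0.20 (adjusted p = 9.47e-06) and Pik3ca at 0.16 (adjusted p = 0.0118) in the same exact test. Pik3cb was the gene called lower, at -0.25 (adjusted p = 0.0438, exact test), and that call was lost on the spike-in scale (-0.12) and in the other quantification (-0.19, adjusted p = 0.105, exact test), while scaling by total counts turned it to 0.64. Pik3c2a, at 0.17 (adjusted p = 0.0525), and Pik3c2b, at 0.09 (adjusted p = 0.654), were not called by the exact test. Pik3c2a was called as higher on the spike-in scale (0.295, adjusted p = 0.000107) and in the other quantification (0.18, adjusted p = 0.017) by the exact test. Pik3cd and Pik3cg fell under the count minimum and had ratios of 0.35 and 0.92.

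No tested member was 2-fold or more apart, against 1.28% of all genes tested. The spike-in scale moved the median of all genes to 0.15 and called 6 members, all higher, where it called 46.1% of all genes (38.4% higher and 7.68% lower, and 1.36% 2-fold apart). Scaling by total counts moved that median to 0.91 and placed 6 members 2-fold or more apart, beside 35.7% of all genes, and called 8 of 8 as higher, beside 98.4% of all genes (97.6% higher and 0.806% lower). Of the 4 scalings, TMM and DESeq2 size factors gave the split of 5 higher and 1 lower. Under TMM a minimum of 10 counts or none gave 6 higher and 0 lower of 10 tested. The share of all genes called was not computed for DESeq2 size factors or these minimums, so nothing is read from their counts. The other quantification called 6 of 9 members, all higher, beside 35.2% of all genes (20.4% higher and 14.8% lower), and placed none 2-fold apart, beside 1.21%.

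**Figure D4:**
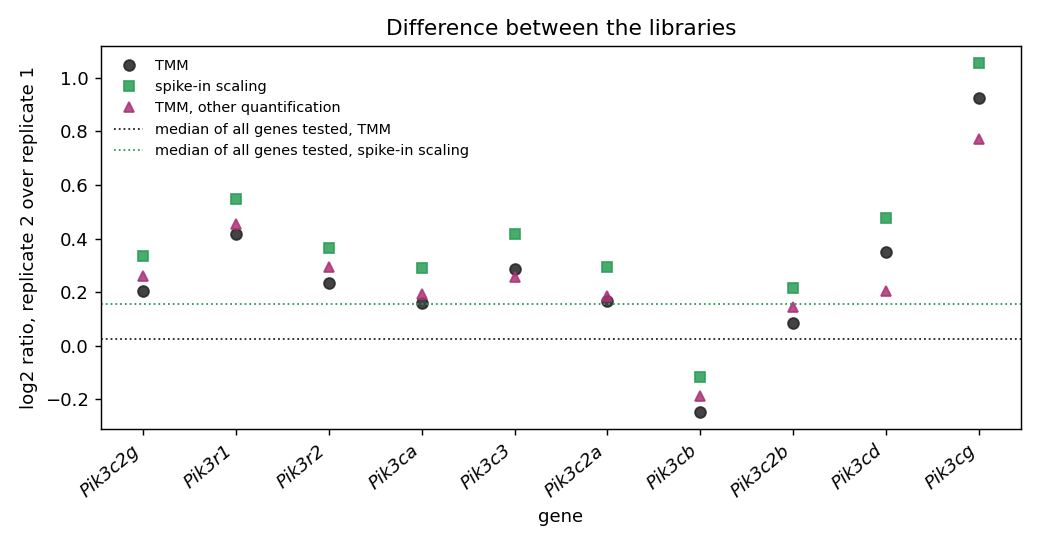
Log2 ratio of replicate 2 over replicate 1 (y axis) of the 10 genes (x axis) under TMM, spike-in scaling and TMM on the other quantification; dotted lines are the medians of all genes tested. The ratio of Pik3cb is below 0 and the other 9 are above 0 on the 3 scales shown.

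Since Pik3c2g is known from the X-zone and from liver, markers of both were set beside it. Akr1c18, the progesterone-degrading enzyme of the X-zone, was at 1477 and 2682 TPM, and exceeded Pik3c2g 44.4 and 43.5 times (40.9 and 38.9 times in the other quantification). Its ratio between the libraries was 0.14 and that of Thrb, the thyroid hormone receptor gene of the list, 0.39 (16.2 and 41.2 TPM). The whole-gland files hold no information on zones, so the place of Pik3c2g within the cortex was not measured. Liver markers went the other way: 8 of 8 were lower in replicate 2, and their sum was 210 TPM in the first against 3.92 TPM in the second library, led by Alb (141 and 3.47 TPM) and Apoa1 (24.9 and 0.17 TPM). The 7 of them tested, Alb, Apoa1, Apob, Serpina1b, Fga, Fgb and Cps1, had ratios of -7.31 (Fga) to -9.38 (Cps1). For Pik3c2g, the coding TPM was 161 and 182, and the part of liver RNA in its level was not tested.

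The other marker lists gave the setting. All 8 cortex genes were detected in both libraries, led by Hsd3b1 (2993 and 5757 TPM) and Star (2476 and 4508 TPM), and Star exceeded Pik3c2g 74.4 and 73.1 times (104.3 and 85.02 in the other quantification). All 4 zona glomerulosa genes, with Dab2 (102 and 137 TPM) and Agtr1a (49.6 and 49.5 TPM) highest by the mean, although Cyp11b2 (26.3 and 53.5 TPM) was above Agtr1a in replicate 2, and all 7 medulla genes, with Chgb (399 and 628 TPM) and Chga (337 and 655 TPM), were detected too. So were all 6 endothelial genes, led by Plvap (35.0 and 63.2 TPM) and Emcn (19.0 and 38.4 TPM), and 5 of 6 fat genes, led by Fabp4 (393 and 522 TPM) and Ucp1 (185 and 165 TPM). None of 5 kidney or 5 pancreas genes reached 1 TPM. Lrp2 and Umod, and Amy2a5 and Pnlip, were their highest, all at 0.13 TPM or less, and Slc34a1, Kap and Cela3b had 0 counts in both libraries. Of the fat genes 5 of 6 were called lower in replicate 2, beside 15.7% of all genes tested. Their ratios ran from -0.27 (Adipoq) to -0.91 (Ucp1), and from -0.14 to -0.78 for the same genes on the spike-in scale. The list median was -0.32. Lep was called higher, beside 17.6% of all genes tested, with a ratio of 1.82 from 17 and 203 counts.

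Most genes listed for the wider pathway were detected in the whole gland. Of 70 genes in 6 lists 68 reached 1 TPM in both libraries, against 51.5% of the 22014 coding genes. The lists were chosen with earlier results of these data known, so nothing is read from that difference. Of the 68 tested, 28 were called, 17 higher and 11 lower in replicate 2, beside 33.3% of all genes tested (17.6% higher and 15.7% lower), and the same shares stand beside the counts of each list that follow. The 68 had a median ratio of 0.03, beside 0.03 over all genes tested. Receptors and their partners were detected in 15 of 15 cases, led by Gnb1, a G-protein beta subunit, at 65.0 and 129 TPM, and Fgfr2 at 38.0 and 61.2 TPM. In that list 5 genes were called higher and 4 lower. Kit, the stem cell factor receptor, was the pathway gene 2-fold or more apart, at 1.17 TPM (74 counts) and 3.35 TPM (498 counts), with a ratio of 1.05 (adjusted p = 2.19e-09, exact conditional binomial test).

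Adaptors and regulators outside the 10 genes were low. Of 9 such genes 7 were detected, led by Irs2, a docking protein of the insulin receptor, at 4.65 and 7.59 TPM, and Gab1 at 3.24 and 8.21 TPM by the mean, although Gab1 was below Gab2 (3.78 TPM), Irs1 (3.77 TPM) and Pik3r3 (3.54 TPM) in replicate 1 and above Irs2 in replicate 2. The subunits Pik3r5 and Pik3r6, partners of p110-gamma, were the pair under 1 TPM in both libraries, at 0.28 and 0.31 TPM and at 0.47 and 0.84 TPM. In this list 3 genes were called higher and 2 lower. All 6 class III partners were detected and none was called by the exact binomial test with adjustment.

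Lipid phosphatases, which remove phosphates from the products, were detected in 12 of 12 cases, with 3 called higher and 1 lower. Inppl1, a 5-phosphatase, led at 21.2 and 36.3 TPM. All 11 kinases of other inositol positions were detected, led by Pi4ka (18.7 and 28.7 TPM) and Pi4kb (12.2 and 20.4 TPM), with 1 called higher. All 17 genes of the Akt and mTOR branch were detected, with 5 called higher and 4 lower. Akt1 led them at 83.1 and 136 TPM, above each of the 10 family genes, followed by Akt2 at 31.5 and 68.8 TPM.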

How the data were processed

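Total RNA sequencing of 2 adrenal libraries was used as deposited, with 3 tables per library. Per the notes deposited beside the files, reads were quantified on mm10 with GENCODE M21; the quantifying programs and versions: not given in the sources used here. Deposited were expected counts and TPM per gene and transcript in a first quantification, with the percent of a gene's TPM on each transcript, and estimated counts and TPM per transcript in another, summed per gene here. The deposited interval bounds of TPM, used as a score, are printed for Pik3cd and Pik3cg and drawn in the plot of levels. Symbols, transcript types and coordinates came from the GENCODE M21 annotation, matched by identifier; promoter sequences are RefSeq's (GRCm38.p6).

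Counts were rounded for TMM (edgeR 4.0.16, R 4.3.3), for DESeq2 1.42.0 size factors and for the exact conditional binomial test (scipy 1.17.1), called at an adjusted p below 0.05 and run on simulated data. The simulation drew Poisson counts with known library totals, so it could check neither the TMM scaling nor variation beyond counting error. Genes entered at a mean count of at least 100; 8 of 10 members did. Total-count and spike-in scaling, other priors, minimums and TPM thresholds, and the other quantification were alternatives. Python 3.11.15, numpy 2.4.6, pandas 2.3.3 and matplotlib 3.10.9 were used. All 10 members are named, with the 2 highest genes of each list, genes with 0 counts in both libraries in a marker list and list genes with a mean count of 100 or more that were 2-fold apart; of these, 2 list genes are not reported here. Gm36638, Pik3r3, Pik3r5, Pik3r6, Irs1, Gab2, Thrb, Cyp11b2, Adipoq, Ptprc, Cd3e, Cd3g and Cd8a were added after their values were seen, as was the grouping of transcripts by start. The members and lists were chosen with earlier results of these data known. Counting intervals do not apply to estimated transcript shares.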

Additional observations from a re-analysis of the deposited data

How the results depend on the processing

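No paired analysis was possible because the 2 libraries form 1 group. Leaving out a library leaves a single value: the number of members at 1 TPM was then 8 or 9. The share of Pik3c2g among catalytic TPM was 52.5% to 56.2%. Its share on transcripts that start at or past the inner site was 94.1% to 96.4%. Ratios between the libraries cannot be formed without one of them. Expected counts in place of TPM lowered the mean share of Pik3c2g from 54.3% to 39.8%. The other quantification lowered the share at or past the inner site from 95.3% to 89.8%, an alternative chosen after seeing the data. Total-count scaling raised the number of members 2-fold or more apart from 0 to 6 and reversed Pik3cb, from -0.25 to 0.64; this scaling moved the median of all genes from 0.03 to 0.91. The number called was 6 under TMM, spike-in scaling and the other quantification, beside 33.3%, 46.1% and 35.2% of all genes. It was 8 under total counts, beside 98.4% of all genes. DESeq2 size factors and minimums of 10 counts and none also gave 6, where the share of all genes was not computed. Thresholds of 0.5 and 5 TPM gave 8 and 6 members detected, and 10 reached 1 in coding TPM. In the other quantification 7 mean member levels and 7 leading-transcript shares were classed as moved, and 3 of each as the same. These classes went with the SD of the 2 libraries and not with the size of the change. The mean share of Pik3c3-203 went from 50.45% (SD 55.35) to 82.0% and was classed as the same. That of Pik3c2g-207 went from 32.95% (SD 0.375) to 33.5% and was classed as moved. The mean TPM there was 84.2 in place of 45.5 for Pik3r1 and 72.0 in place of 47.5 for Pik3c2g. Low counts limit Pik3cd and Pik3cg, whose transcript shares are not resolved.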
